A study of Danio rerio with 4 samples.

Results

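A set of 102 transcripts was abundant in zebrafish blastulae and below 2 TPM at the end of gastrulation. Wild-type embryos of the TLAB strain were sampled at sphere (4 hpf, hours post-fertilization), a blastula stage, and at bud (10 hpf), when gastrulation ends. Each stage had 2 replicates, each a pool of 50 whole embryos grown in E3 medium, with no mutation or treatment in either group. Total RNA depleted of ribosomal RNA was sequenced, and the deposited values are TPM, abundances scaled for transcript length and for the total of the library. TPM was listed for 24573 transcripts. The methods describe a reference of 1 principal isoform per protein-coding gene, with a smaller total after filtering. The members were chosen by their TPM in these same 4 samples, as the transcripts with at least 50 TPM in both sphere samples and below 2 TPM in both bud samples. The stage difference of the members is therefore a description without a test.

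An early fish embryo runs on mRNA laid down by the mother in the egg. Zygotic genome activation then starts transcription from the embryo's own genes, and many maternal mRNAs are degraded during the blastula and gastrula periods, some by a maternal route and others only after zygotic products such as microRNAs appear. A few genes are transcribed by the zygote in a short pulse and are silent again by the end of gastrulation. A transcript of either kind can be high at sphere and low at bud, and 2 time points do not separate them. In pools of whole embryos, fewer cells with a transcript and less of it per cell cannot be told apart, and TPM measures a share of each library rather than molecules per embryo.

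The 102 members were 2.23% of the 4565 transcripts with at least 50 TPM in both sphere samples, and 0.415% of all transcripts in the table. They held 1.44% and 1.53% of all TPM in sphere replicates 1 and 2, and 0.00886% and 0.00983% in bud replicates 1 and 2. Their summed abundance was 14351 and 15349 TPM at sphere against 88.6 and 98.3 TPM at bud.

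Single members spanned a wide range at sphere. Values ran from 50.9 to 1258 TPM in replicate 1, with a median of 94.0 TPM, and from 52.9 to 843 TPM in replicate 2, with a median of 103 TPM. Of the 102, 47 had a mean sphere level of 50 to 100 TPM, 40 of 100 to 200 TPM, 11 of 200 to 500 TPM and 4 above 500 TPM. Only 1 ranked among the 100 most abundant transcripts at sphere, 8 among the top 500 and 21 among the top 1000. The 5 most abundant members carried 21.2% of the members' mean TPM at sphere.

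At bud the same transcripts lay between 0 and 1.91 TPM in replicate 1 (median 0.874 TPM) and between 0 and 1.96 TPM in replicate 2 (median 0.958 TPM). In each bud library about 37.4% of all transcripts were below 2 TPM. Among the members, 43 were below 1 TPM in both bud samples, 30 were at 1 TPM or more in both, and 29 fell on either side of 1 TPM. A value of exactly 0 was listed for 10 members in at least 1 bud sample. A single member, the 28th by sphere level, was listed at 0 in both, after 143 and 160 TPM at sphere. The TPM table holds no depth, so no counting error was computed and these zeros are listed values, not measured absence.

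**Figure D1:**
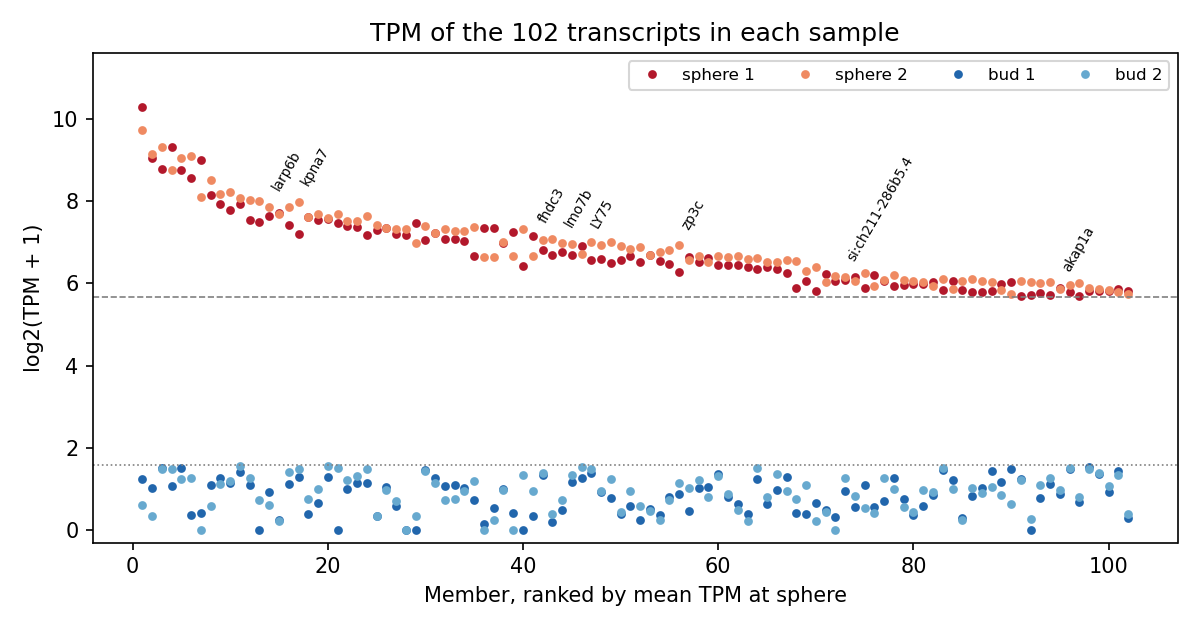
Abundance of the 102 members on the log2(TPM + 1) scale, with members ranked along the horizontal axis by mean TPM at sphere and 1 point per sample. Dashed and dotted lines mark the 50 and 2 TPM limits of the selection; the sphere points descend from 1258 TPM to just above the dashed line, while the bud points stay at or below 1.96 TPM along the whole ranking.

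On the log2(TPM + 1) scale, which understates the fall of a transcript near 0, the median member changed by -5.87 from sphere to bud (quartiles -6.47 and -5.27). The smallest change was -4.34 and the largest -9.09. All tested transcripts had a median of 0.02, and the 4565 abundant sphere transcripts a median of -1.12. Within a stage, the median member differed between replicates by 0.23 log2 units at sphere and by 0.20 at bud, and the widest sphere difference was 0.92. The corresponding medians for the 4565 abundant transcripts were 0.14 and 0.11. With limma on log2(TPM + 1) across the 20332 transcripts whose stage mean exceeded 0.5 TPM at sphere or at bud, 38.2% were called lower and 37.2% higher at bud at an adjusted p of 0.05, and 102 of the 102 members were called lower. The selection used this contrast, so nothing is read from that count, and each member entered the fit through its high sphere level.

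The most abundant member, ENSDART00000193940, had 1258 and 843 TPM in sphere replicates 1 and 2 and 1.37 and 0.518 TPM in bud replicates 1 and 2. It was the only member in the top 100 at sphere, at rank 72, and its mean fell from 1051 ± 293 TPM to 0.945 ± 0.603 TPM (SD, n = 2). The next, ENSDART00000051751, had 525 and 566 TPM at sphere and 1.05 and 0.265 TPM at bud. Neither identifier was paired with a gene. The third to seventh members had mean sphere levels of 534, 533, 480, 462 and 389 TPM. At bud these 5 lay between 0 and 1.85 TPM.

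**Figure D2:**
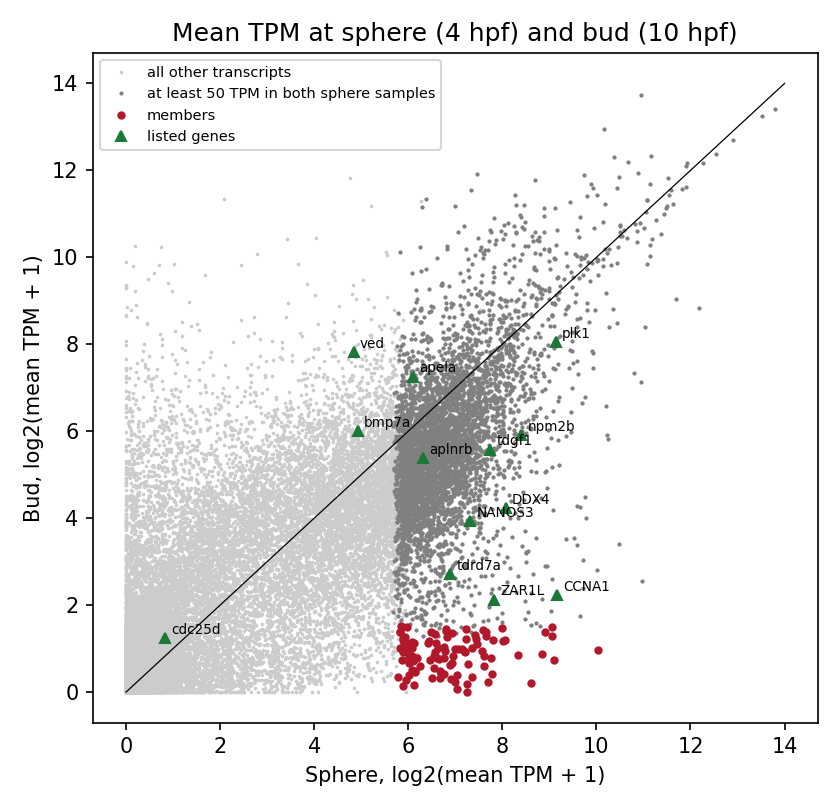
Mean abundance at sphere (horizontal axis) against mean abundance at bud (vertical axis), both as log2(mean TPM + 1), for all 24573 transcripts, with the line of equality. The 102 members (red) fill the lower right corner, and listed germline, patterning and cell cycle genes (green triangles) lie outside that corner, from CCNA1 and ZAR1L, just above the members, to ved, above the line, and cdc25d, low at both stages.

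The table lists Ensembl transcript identifiers. Gene identities were obtained for 1643 expressed genes, by matching the mean TPM at both stages to a gene table that accompanies the paper, and symbols come from a gene name table. These genes lie within the first 2327 of the 24573 rows. All 8 members in that stretch could be identified, and the other 94 members were not named here. The 8 are therefore set by the position of a row and not by expression. They were 2.08% of the 384 identified genes with at least 50 TPM in both sphere samples, close to the 2.23% over the whole table.

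Among the 8, larp6b, kpna7 and zp3c belong to families with known functions in RNA binding, nuclear import and the egg coat. The gene larp6b (ENSDART00000004483) encodes a La-related protein; mammalian LARP6 binds RNA, including collagen mRNAs. It had 199 and 231 TPM at sphere and 0.912 and 0.536 TPM at bud, the highest mean start of the 8. Its change of -6.97 was the largest of the 8 on the log2(TPM + 1) scale. With a pseudocount of 0.1, fhdc3, described below, changed more, by -8.51 against -8.06 for larp6b. For kpna7 (ENSDART00000036906), an importin alpha that in mammals is a nuclear import adaptor of oocytes and early embryos, the values were 147 and 252 TPM at sphere and 1.45 and 1.79 TPM at bud. Its sphere replicates were the most unequal of the named members, and its bud values the highest. The egg coat gene zp3c (ENSDART00000189845), a zona pellucida glycoprotein, had 76.4 and 121 TPM at sphere and 0.850 and 1.22 TPM at bud. The sphere replicates of zp3c, like those of kpna7, were more unequal than those of larp6b.

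Cytoskeletal and anchoring proteins made up the next group. The gene fhdc3 (ENSDART00000136393) encodes a protein with a formin homology domain, a module that nucleates actin filaments. Its values were 102 and 135 TPM at sphere and 0.152 and 0.313 TPM at bud, the lowest residue of the 8. LMO7 in mammals is a LIM domain protein of cell junctions that binds actin-associated partners. Its zebrafish homologue lmo7b (ENSDART00000140515) had 108 and 125 TPM at sphere and 0.408 and 0.675 TPM at bud. The gene akap1a (ENSDART00000136554) encodes an A-kinase anchoring protein, a family member that tethers protein kinase A to the outer mitochondrial membrane in mammals. It had 58.4 and 57.5 TPM at sphere and 0.836 and 0.964 TPM at bud, the tightest replicates of the named members.

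LY75 (ENSDART00000026135), known in mammals as the endocytic lectin receptor DEC-205, had 102 and 123 TPM at sphere and 1.26 and 1.52 TPM at bud. The clone-named gene si:ch211-286b5.4 (ENSDART00000152687) had 66.8 and 70.2 TPM at sphere and 0.924 and 1.42 TPM at bud. Across the 8 named members the change on the log2(TPM + 1) scale ranged from -6.97 to -4.96. Of the 8, 7 had the higher sphere value in replicate 2, and 7 had the higher bud value in replicate 2.

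**Figure D3:**
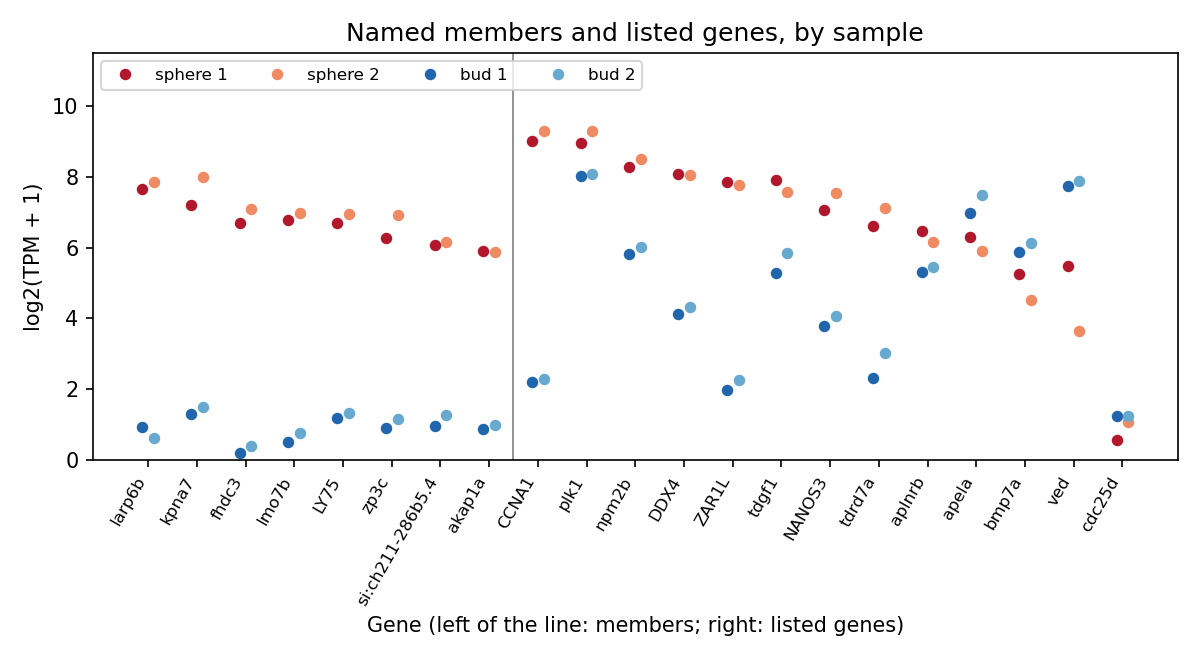
Abundance per sample, as log2(TPM + 1), with 1 point per sample. The 8 named members are left of the vertical line. The 13 identified genes of the germ plasm and oocyte, patterning and cell cycle lists are on the right. The bud points of every named member stay at or below 1.79 TPM, as the selection required values below 2 TPM. Those of ZAR1L, CCNA1 and tdrd7a lie between 2.95 and 7.17 TPM, and those of DDX4, NANOS3 and npm2b between 12.9 and 63.9 TPM. The bud points of ved and apela lie above their sphere points.

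Maternal mRNAs of zebrafish have been classed in earlier work as maternal-stable or maternal-unstable by how long they last in the embryo. The gene table carries these classes. It marks larp6b, zp3c, akap1a and si:ch211-286b5.4 as maternal-unstable and lmo7b and LY75 as maternal-stable, and gives kpna7 and fhdc3 no class. Of the 384 identified abundant sphere genes, 20 were marked maternal-unstable, 42 maternal-stable and 322 had no class. The named members were 4 of the 20 (20.0%), 2 of the 42 (4.76%) and 2 of the 322 (0.621%). The median change was -4.58 for the maternal-unstable, -1.98 for the maternal-stable and -0.99 for the unclassed genes. In both bud samples, 16 of the 20 maternal-unstable genes ended below 12 TPM, against 9 of 42 and 13 of 322. That limit was arbitrary, and each class had genes not far under it. Examples by their higher bud value were zgc:173837 (maternal-unstable, 11.8 TPM), rab3da (maternal-stable, 10.1 TPM) and si:dkey-88l16.5 (no class, 10.6 TPM). The shares and medians above are descriptions of a part of the genes and were not tested. The paper describes maternal-unstable mRNAs as decreasing from about 4 hpf onward, which overlaps the interval compared here. A larger fall in that class therefore follows in part from its definition. A maternal-stable mark thus did not keep a gene out of the set, since lmo7b and LY75 reached at most 1.52 TPM at bud.

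The 5 identified genes of the germ plasm and oocyte list were lower at bud and stayed above 2 TPM in both bud samples. That list did not hold zp3c or kpna7, which are members and are described above. Of 24 listed germ plasm and oocyte genes, 5 were identified, and 5 of the 5 fell (limma, Benjamini-Hochberg adjusted over all transcripts), against a background of 38.2% called lower. All 5 had more than 50 TPM in both sphere samples, and abundant sphere transcripts mostly fell (median change -1.12, upper quartile -0.22). The share called lower among abundant transcripts was not computed. None of the 5 was a member, and nothing is read from that, since members were only 2.23% of the abundant sphere transcripts. ZAR1L, a zygote arrest protein known from mouse oocytes, came closest. It went from 232 and 218 TPM at sphere to 2.95 and 3.79 TPM at bud, a log2 change of -5.70 (standard error 0.15, adjusted p = 1.66e-05, limma). The Tudor domain gene tdrd7a, a component of germ granules, went from 96.5 and 139 TPM to 3.99 and 7.17 TPM. DDX4 (Vasa), the RNA helicase that marks germ cells, stood at 270 and 265 TPM at sphere and at 16.3 and 19.1 TPM at bud. NANOS3, a translational repressor of germ cells, stood at 132 and 184 TPM and then at 12.9 and 15.7 TPM. The histone chaperone npm2b (nucleoplasmin) kept most, at 310 and 362 TPM and then 54.9 and 63.9 TPM. DDX4, NANOS3 and tdrd7a were also the 3 identified of 5 listed primordial germ cell markers, and their lowest bud value was the 3.99 TPM of tdrd7a. No listed marker of the enveloping layer or the yolk syncytial layer was identified, so those tissues were not checked, and likewise 0 of 10 listed maternal and early transcription factors were identified.

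Of 11 listed cell cycle genes, 3 were identified, of which 2 fell and 0 rose, against backgrounds of 38.2% lower and 37.2% higher. CCNA1, a cyclin A known from the early divisions of frog embryos, had 519 and 630 TPM at sphere and 3.56 and 3.83 TPM at bud, a log2 change of -6.93 (standard error 0.14, adjusted p = 1.40e-05, limma). On the log2(TPM + 1) scale this was close to the change of larp6b, and CCNA1 ended just above 2 TPM. With a pseudocount of 0.1 the changes were -7.24 for CCNA1 and -8.06 for larp6b. The mitotic kinase plk1 went only from 496 and 625 TPM to 260 and 270 TPM (log2 change -1.07, standard error 0.13, adjusted p = 0.000906, limma). The phosphatase gene cdc25d was near the floor at both stages, at 0.480 and 1.09 TPM at sphere and 1.34 and 1.38 TPM at bud (adjusted p = 0.154, limma).

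Genes of early zygotic patterning gave no member either. Of 24 listed, 5 were identified, of which 2 fell and 3 rose, against backgrounds of 38.2% lower and 37.2% higher. The Nodal co-receptor tdgf1 fell from 240 and 187 TPM to 37.5 and 56.0 TPM, and aplnrb, a receptor for the Toddler peptide, from 87.1 and 69.7 TPM to 38.3 and 43.1 TPM. The gene for that peptide, apela, rose from 77.5 and 58.4 TPM to 126 and 178 TPM. The ventral repressor ved rose from 43.9 and 11.4 TPM to 212 and 237 TPM, and the ligand gene bmp7a from 37.1 and 21.8 TPM to 57.2 and 68.6 TPM. The calls for aplnrb, apela, ved and bmp7a were lost under some alternatives, most of which left a stage with 1 sample whose spread was then taken from the other stage. Adjusted p was 0.0873 for aplnrb with quantile normalization and 0.0654 without bud replicate 1, 0.0567 and 0.0807 for apela without sphere replicate 2 and without bud replicate 2, 0.101 and 0.110 for ved without bud replicate 1 and 2, 0.118 and 0.171 for bmp7a likewise, and 0.0645 for bmp7a without a filter (limma). The log2 changes kept their direction, at 3.33 and 3.17 for ved without bud replicate 1 and 2 (3.25 with all samples), at 1.24 and 0.98 for bmp7a (1.11), at 0.94 for apela without sphere replicate 2 and 0.89 without bud replicate 2 (1.14), and at -0.39 for aplnrb with quantile normalization and -0.84 without bud replicate 1 (-0.92).

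The members form the lower end of a continuous range. Of the 4565 abundant sphere transcripts, 131 had a higher bud value of 2 to 5 TPM, 184 of 5 to 10 TPM, 758 of 10 to 25 TPM, 1112 of 25 to 50 TPM, 1027 of 50 to 100 TPM and 1251 of 100 TPM or more. Transcripts in the middle of this range, at 10 to 25 TPM, had a median log2 change of -2.26, and those of 100 TPM or more a median of 0.21. The share that were members changed little with the sphere level: 2.18% of transcripts with a mean of 50 to 100 TPM, 2.47% at 100 to 200 TPM, 1.86% at 200 to 500 TPM and 2.02% above 500 TPM. The median sphere level was 105 TPM for the members and 104 TPM for all 4565.

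**Figure D4:**
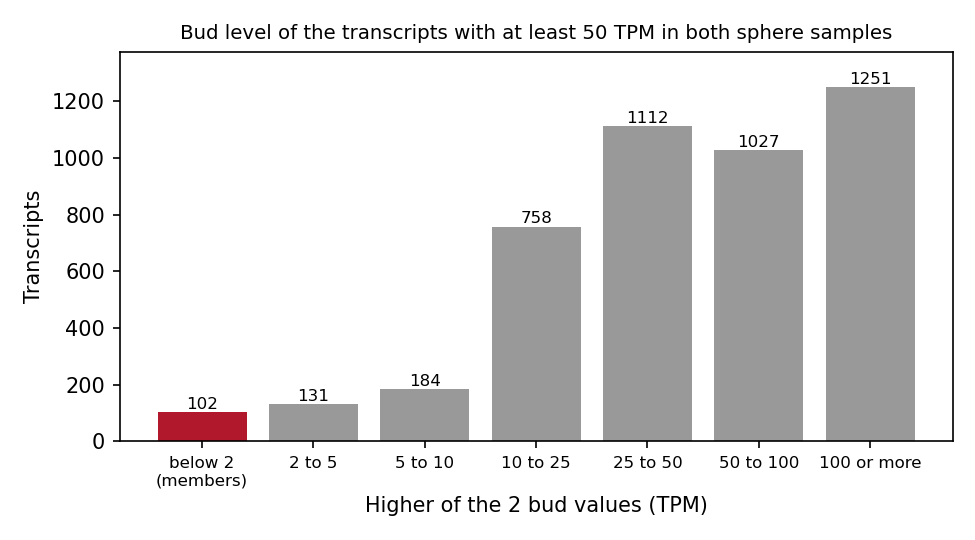
Number of transcripts, among the 4565 with at least 50 TPM in both sphere samples, by the higher of their 2 bud values in TPM; the bar of the 102 members is red. The first bar holds 102 transcripts and the next 131, and the tallest is that of 1251 at 100 TPM or more.

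The limits cut through this range at arbitrary points. Just inside the bud limit, the 3 highest members reached 1.96, 1.94 and 1.91 TPM in their higher bud sample, and just outside it 3 transcripts reached 2.03, 2.05 and 2.05 TPM, with 1.56, 1.30 and 1.26 TPM in the other sample. At the sphere limit, the 3 lowest members had 50.9, 51.1 and 51.7 TPM in their lower sphere sample, and the nearest excluded transcripts 49.9, 49.9 and 49.2 TPM.

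Among identified genes, 8 abundant at sphere had a higher bud value of 2 to 5 TPM, and 8 of the 8 were called lower at bud (limma), against 38.2% of all tested transcripts; they were picked for low bud values. They were ZAR1L and CCNA1, described above, and ACAP3, SMIM14, VLDLR, TMEM120B, tmsb5 and FBXO8. VLDLR, a lipoprotein receptor that takes up yolk precursors in the oocytes of birds, had 198 and 234 TPM at sphere and 3.70 and 4.08 TPM at bud. The thymosin beta gene tmsb5, from a family that binds actin monomers, had 188 and 246 TPM at sphere and 4.68 and 3.67 TPM at bud. Large falls on the log2(TPM + 1) scale therefore also lay outside the set. The claudin gene cldng, a tight junction component, fell by 7.06 on that scale, more than any of the 8 named members. It started from 1186 and 1687 TPM and still had 9.09 and 10.1 TPM at bud. Among all members, the 11th largest change, at -7.25, was still larger. The order of cldng and the named members may depend on the scale, which understates falls to near 0. Ratios of mean sphere to mean bud TPM ran from 58.3 for si:ch211-286b5.4 to 509 for fhdc3 among the named members. No such ratio was computed for cldng, whose means were 1436 and 9.59 TPM. UCHL1, a ubiquitin hydrolase, went from 783 and 892 TPM to 6.90 and 7.50 TPM.

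Choosing the transcripts in 1 sphere and 1 bud sample and reading the other 2 samples gave values that the choice had not used. Sphere and bud replicate 1 chose 133 transcripts. In replicate 2, 125 of them had at least 50 TPM at sphere, 109 were below 2 TPM at bud, and 102 (76.7%) met both limits. These 102 are the members themselves, so that count was fixed in advance for every such choice. Over all 133 chosen transcripts the median log2 change in replicate 2 was -5.73, against 0.01 for all tested transcripts. Of the 133, 132 were lower at bud, against 49.6% of all tested transcripts. That background is unlike the chosen transcripts, which were picked for high sphere values, and abundant sphere transcripts had a median change of -1.12. The members are also 102 of the 133, and the rule had bounded their values in replicate 2. Over the 133, values in replicate 2 reached down to 6.73 TPM at sphere and up to 17.3 TPM at bud. The highest change was 1.24, a rise. The reverse choice, in replicate 2, took 147 transcripts, of which 102 (69.4%) met both limits in replicate 1. Over all 147 the median change in replicate 1 was -5.50, and 147 of 147 were lower at bud. The crossed choices took 126 and 150 transcripts, with medians of -5.86 and -5.40 in the samples not used. Each reading compares 1 sphere with 1 bud sample and has no replicate, so no test was made.

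At sphere the replicates differed in a direction most members shared. Replicate 2 had the higher value for 79 of the 102 members (77.5%) and for 67.1% of all abundant sphere transcripts. A difference above 1.2-fold towards replicate 2 was seen for 31 members (30.4%, against 16.8% of the abundant transcripts) and towards replicate 1 for 10 members (9.80%, against 5.74%). Those 10 included the first, the fourth and the seventh member by abundance. The seventh had 507 and 272 TPM in sphere replicates 1 and 2, the widest difference towards replicate 1, and 0.329 and 0 TPM at bud. The opposite extreme was the 40th member, with 84.2 and 160 TPM at sphere and 0 and 1.53 TPM at bud. Among the listed genes, all 5 identified patterning genes were higher in sphere replicate 1. All 3 cell cycle genes were higher in replicate 2, as were 67.1% of the abundant transcripts, but cdc25d was near the floor (0.480 and 1.09 TPM). The 5 germ plasm and oocyte genes were split, with 2 higher in replicate 1 and 3 in replicate 2. The groups of 10 and 31 members were formed from these values, and the part of stage timing or library composition in the difference was not tested.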

How the data were processed

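The deposited values are TPM per transcript in 4 libraries. According to the methods, the authors removed adapters with Trim Galore and quantified 1 principal isoform per protein-coding gene of GRCz11 in TPM. Kallisto is named for RNA-seq and RSEM for codon usage, and the file does not say which gave its values. Each library sums to 1000000, so the table itself holds no depth, and no counting error was computed. The methods give a range of reads over these libraries, with no depth per sample. Reads of near-identical paralogues may be split between them.

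Members were found by the stated limits. Transcripts were paired with genes where both stage means equalled, to 6 digits, those in the paper's gene table, which was used for identity and class only. Of 1998 gene rows read, 1643 were expressed and each had 1 match, 1580 with a symbol. Stage differences were fitted with limma 3.58.1 (R 4.3.3; lmFit and trended eBayes) on log2(TPM + 1), keeping transcripts whose stage mean exceeded 0.5 TPM at sphere or bud, with Benjamini-Hochberg adjustment and a threshold of 0.05. The fit and the pairing were tested on simulated data. Other values and figures used Python 3.11.15 with pandas 2.3.3, numpy 2.4.6 and matplotlib 3.10.9.

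Replicates are pools of 50 embryos labelled 1 and 2. The methods state that replicates of the matching tRNA samples came from different days, with no day per sample, so p-values measure the spread between these pools. No block was used. Alternatives covered the pseudocount (0.1), the filter (none, or 5 TPM), scaling, the variance trend, the replicate number as a block, the selection limits and single samples left out. The rule for names was the 20 most abundant members, the 10 largest falls and members of the gene lists where a gene could be paired, and otherwise the 2 most abundant members by identifier. This names larp6b, kpna7 and the 2 identifiers; the other 6 named members, as the remaining identified ones, and the genes next to the bud limit were added after their values were seen. The members and lists were chosen with earlier results of these data known. No sequences were read, because the reference tables used here hold none.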

Additional observations from a re-analysis of the deposited data

How the results depend on the processing

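The number of members followed the selection limits: 197 with a sphere limit of 25 TPM, 44 with 100 TPM, 43 with a bud limit of 1 TPM and 233 with 5 TPM. It was 137 when replicate means had to pass, 99 after median-of-ratios scaling, 116 after quantile normalization and 109 to 125 when 1 sample was left out of the rule. With a pseudocount of 0.1 the members' median log2 change was -6.98; leaving out each replicate gave -6.00 to -5.73. Their share of sphere TPM was 1.81% without the 100 most abundant transcripts, against a mean of 1.49%. Transcripts called lower numbered 7772, with 6863 under the 5 TPM filter and 5869 to 7449 without 1 replicate. With the replicate number as a block, 7824 were called lower; the deviations of same-numbered samples had r = 0.09 across transcripts, and whether a number marks a shared collection day is not given in the sources used here. Among named genes, bmp7a lost its call without a filter (adjusted p = 0.0645, limma) at the same log2 change of 1.11, and the cause was not tested, and the change of cdc25d, not called, turned to -0.047 after quantile normalization and was called without sphere replicate 2 (adjusted p = 0.0428, limma). Scaling moved the median of all transcripts by at most 0.06 log2 units. The counting error of bud values near 0 was not computed, since the TPM table holds no depth. Where a sample was left out, its stage had 1 sample, assumed to vary like the other stage.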

Other observations

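Members were spread over the whole table, with a median of 143 rows between one member and the next. Within the first 2327 rows, where genes were identified, rows followed chromosomes. Among 1170 identified genes with a chromosome in the RefSeq genes of assembly GRCz12tu, 97.6% of consecutive pairs shared it. Row order beyond that stretch was not checked, and the close members described below all lie beyond it. In 4 cases a member stood 5 rows or fewer after another. Members were 0.415% of all rows. The number of such cases under random placement was not computed, so nothing is read from this count or from the groups below. The second most abundant member, with 525 and 566 TPM at sphere, followed directly on the 15th, which had 208 and 204 TPM at sphere and 0.182 and 0.161 TPM at bud. The 40th and 49th members stood 3 rows apart and shared a higher value in sphere replicate 2, at 84.2 and 160 TPM for the former and 89.1 and 127 TPM for the latter. The closest group held 3 members within 6 rows. Those had 245 and 289, 66.1 and 71.1, and 126 and 128 TPM at sphere, and none exceeded 1.40 TPM at bud. The 3 rows between them had other patterns, at 22.5 and 41.7, 8.56 and 9.31, and 1.44 and 0.377 TPM at sphere, with up to 18.6 TPM at bud. None of these members was identified, so whether they are related genes was not tested.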
